A study of Homo sapiens with 2 samples.

Results

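The RNA-binding protein LIN28B and a group of genes tied to it through the let-7 microRNAs and through fetal growth programmes were followed in single neuroblastoma cells with and without an induced HRAS oncogene. The group had 9 members, found by symbol among the 36027 genes of the deposited table: LIN28B, IGDCC3, HMGA1, HMGA2, IGF2BP1, IGF2BP2, IGF2BP3, ARID3B and NR6A1. They were chosen by symbol with their counts summed over each library, and per cell, already known. The measured difference between the libraries was thus part of the choice, so it is described here and was not tested.

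The cells were SK-N-BE(2)-C, an established human neuroblastoma line, carrying HRASV12, a permanently active form of the small GTPase HRAS, under doxycycline control (SK-N-BE(2)-C-pIND-HRASV12). The HRASV12 induced library came from cells given 100 ng/ml doxycycline for 13 days, and the uninduced control library from the same line left without it. Because the control cells had no doxycycline, an effect of HRASV12 and an effect of the drug itself cannot be told apart. There was 1 library per group and hence no replicate error and no test, and every interval is a 95% interval that covers counting error only. 3' libraries (10x Genomics Chromium) were made, which count messenger RNA by its tail end and do not measure mature let-7.

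LIN28B binds let-7 precursors and keeps them from being processed into mature microRNAs. Mature let-7 in turn pairs through its seed with sites in the 3' untranslated regions (3' UTRs) of LIN28B, HMGA2, the IGF2BP genes and other genes of early development, and lowers their expression. LIN28B and let-7 therefore hold each other in check, and in neuroblastoma LIN28B is known as an oncogene that acts in part through MYCN.

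The induced library held 666 cells and 80359736 counts (median 111581 per cell) and the control library 956 cells and 95350640 counts (median 85821 per cell), and no cell barcode occurred in both. Levels are given in CPM, counts scaled so that each library has the same total. HRAS stood at 161 CPM after induction and 109 CPM without it, a difference that does not separate transgene from native transcripts. Of 13 adrenergic neuroblastoma markers, 11 reached 10 CPM, with a median log2 ratio of -0.01. Immune markers summed to 2.73 CPM in induced and 1.76 CPM in control cells, with CD3D at 57 counts in induced cells and 1 in control cells. Endothelial markers summed to 97.0 and 109 CPM in induced and control cells, and EGFL7 (53.4 and 96.4 CPM) made up most of each sum. Of 3 that reached 10 CPM, EMCN (11.4 and 2.03 CPM) and ESAM (10.7 and 3.22 CPM) were past 1.5-fold higher and EGFL7 lower. Below 10 CPM, CDH5, KDR, FLT1 (7.14 and 1.30 CPM), TEK, ERG and TIE1 were also past 1.5-fold higher. With 1 CPM added, PECAM1, CLDN5 and VWF were within 1.5-fold. Fibroblast markers summed to 331 and 167 CPM, with LUM and THY1 past 1.5-fold higher and PDGFRB lower, and epithelial markers to 52.7 and 30.9 CPM, with KRT18 higher. Of the Schwann cell precursor markers PMP22 alone was measured, and it was within 1.5-fold. The part of these markers in the members' differences was not tested, but without the cluster highest in endothelial markers the log2 ratios (1 CPM added) were -1.08 for LIN28B, -2.09 for IGDCC3, -0.84 for IGF2BP1 and -0.79 for NR6A1. The induced library reached lower in quality measures: the 5th percentiles of mitochondrial percent were 1.44 for induced and 8.52 for control cells, and those of MALAT1, an RNA kept in the nucleus, 33.6 and 238 CPM.

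The sequences that tie the members to let-7 are shown first. RefSeq (GRCh38.p14) lists 9 different mature let-7 family members from 12 loci, and all of them share the seed GAGGUAG. The seed, bases 2 to 8 from the 5' end, is in capitals, and the rest of each microRNA shows how little the family differs outside it.
let-7a-5p: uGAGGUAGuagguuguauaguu
let-7b-5p: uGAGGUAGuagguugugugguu
let-7c-5p: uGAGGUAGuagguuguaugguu
let-7d-5p: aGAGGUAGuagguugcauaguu
let-7e-5p: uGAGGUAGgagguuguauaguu
let-7f-5p: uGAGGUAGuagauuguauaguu
let-7g-5p: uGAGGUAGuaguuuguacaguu
let-7i-5p: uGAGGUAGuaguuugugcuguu
miR-98-5p: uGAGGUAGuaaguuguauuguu

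The letters that pair with this seed, CTACCTC, were searched on the transcript strand of 3' UTRs (1 transcript per gene, GENCODE 29, GRCh38). A match followed by A, CTACCTCA, is called an 8-base match, and any other a 7-base match. The stretch TACCTCA with no C before it, which pairs with bases 2 to 7 of the microRNA, was not counted as a match. IGDCC3 had 3 8-base and 1 7-base match in 1782 bases of 3' UTR, IGF2BP1 had 3 and 1 in 6206 bases, LIN28B 2 and 2 in 4549 bases, and NR6A1 2 and 3 in 5430 bases. HMGA2 had 1 and 3, IGF2BP2 and IGF2BP3 1 8-base match each, and HMGA1 and ARID3B 1 7-base match each. Thus all 9 members held a match and 7 an 8-base match, while over 19124 genes with a 3' UTR 8.57% held a match and 3.26% an 8-base match. The members were partly chosen as let-7 targets, so this contrast restates the choice. A match is a stretch of letters and not a proven site. Of the uncounted TACCTCA stretches ARID3B held 4, HMGA2 3, LIN28B, IGF2BP1 and IGF2BP2 1 each, and the other members 0.

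The 8-base matches of the 3 members with the lowest ratios among those at or above 10 CPM, and 1 match of each other member, are printed below with the flanking 3' UTR bases. Capitals mark the match, and the strand is that of the gene.
IGDCC3, chr15:65328446-65328473, minus strand: ttttggctctcagcacCTACCTCAgccg
IGDCC3, chr15:65328364-65328391, minus strand: gagcccgaatgcactcCTACCTCAagtc
IGDCC3, chr15:65328213-65328240, minus strand: atgtgaaagaaaatgtCTACCTCAaggc
LIN28B, chr6:105078811-105078838, plus strand: tacccggttgcaaagtCTACCTCAtgca
LIN28B, chr6:105081420-105081447, plus strand: tgtttacagcaaaaggCTACCTCAtagt
IGF2BP1, chr17:49051060-49051087, plus strand: ctgtgtgcgaagtaaaCTACCTCAaggt
IGF2BP1, chr17:49053697-49053724, plus strand: ccagcagtgctagtaaCTACCTCAcaga
IGF2BP1, chr17:49054351-49054378, plus strand: agtataaatggattaaCTACCTCAatcc
NR6A1, chr9:124522306-124522333, minus strand: atgttgacaaagatgaCTACCTCAatgg
HMGA2, chr12:65963297-65963324, plus strand: cgccaacgttcgatttCTACCTCAgcag
IGF2BP2, chr3:185644216-185644243, minus strand: aaacacacagaagaagCTACCTCAggtg
IGF2BP3, chr7:23311791-23311818, minus strand: gtgcatttttactcaaCTACCTCAggta
HMGA1, chr6:34245827-34245854, plus strand: tttcctctgttcacaaaCTACCTCtgga
ARID3B, chr15:74598099-74598126, plus strand: tatatttcaataaacctCTACCTCttca

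LIN28B (ENSG00000187772.8), the blocker of let-7 maturation, stood at 18.6 CPM in the induced library (interval 17.7 to 19.6, 1496 counts) and at 41.6 CPM in the control library (40.3 to 42.9, 3962 counts). The ratio of induced over control was 0.448 (exact conditional interval 0.422 to 0.476), a log2 ratio of -1.12 with 1 CPM added to both levels. The intervals of the libraries do not overlap, which at such counts holds for small differences too. Those of HMGA1, at a ratio of 0.875, were likewise apart, at 269 to 276 CPM in induced and 308 to 315 CPM in control cells. LIN28B-AS1, which lies against LIN28B, stood at 2.99 and 3.71 CPM in the induced and control libraries. No source used here says whether counting took account of strand, so reads of a member and of its antisense gene may not have been kept apart. A gene is called past 1.5-fold on the log2 ratio with 1 CPM added, beyond 0.585 in either direction, so a gene of low level can have a plain ratio of 1.5-fold and not be called. Of 3 neighbours of LIN28B with 10 CPM or more in either library 0 were past 1.5-fold. Over all genes at that floor 7.73% were lower and 10.3% higher, so little can be read from 3 genes. PREP stood at 11.97 CPM in induced and 13.5 CPM in control cells, POPDC3 at 39.2 and 37.4 CPM, and ATG5 at 44.7 and 32.8 CPM. Below that floor HACE1 and BVES had ratios of 0.833 and 0.866. PRDM1, also below it, was past 1.5-fold higher, at 0.784 CPM in induced and 0.147 CPM in control cells.

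The 3 IGF2BP proteins bind messenger RNAs and alter their stability and translation, and all are known as oncofetal, made in the embryo and again in tumours. IGF2BP1 (ENSG00000159217.10) stood at 59.5 CPM in the induced library (4780 counts) and 106 CPM in the control library (10116 counts), with a ratio of 0.561 (0.542 to 0.580) and a log2 ratio of -0.82. IGF2BP3 (ENSG00000136231.14) stood at 26.8 CPM in induced and 30.1 CPM in control cells, a ratio of 0.888 (0.840 to 0.940). IGF2BP2 (ENSG00000073792.15) was scarce, with 82 counts in induced and 124 in control cells, and its ratio of 0.785 (0.586 to 1.05) was within counting error of 1. Only IGF2BP1 of the family was past 1.5-fold, under each of the 3 alternative scalings as well, and with cells limited by mitochondrial percent and MALAT1 (described further on) its log2 ratio was -0.54 and that of IGF2BP3 0.05.

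HMGA1 and HMGA2 are small chromatin proteins that bend AT-rich DNA, and HMGA2 is a textbook let-7 target. HMGA1 (ENSG00000137309.19) stood at 273 CPM in induced cells and 312 CPM in control cells, with a ratio of 0.875 (0.860 to 0.891) and a log2 ratio of -0.19. Near-identical copies of HMGA1 exist in the genome and can split its reads, so its level is uncertain. HMGA2 (ENSG00000149948.13) was close to the bottom of what the libraries could count, with 73 counts in induced and 74 in control cells. Its ratio of 1.17 (0.835 to 1.64) was within counting error of 1, and its log2 ratio of 0.10 turned to -0.04 without the cluster highest in endothelial markers (60 induced and 12 control cells), where HMGA2 stood at 2.71 CPM from 18 counts.

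IGDCC3 (ENSG00000174498.14), a surface protein of the immunoglobulin superfamily related to the netrin receptor DCC, had the lowest ratio of the 9 members. It stood at 6.16 CPM in the induced library (5.63 to 6.73, 495 counts) and 29.8 CPM in the control library (28.7 to 30.9, 2842 counts), with a ratio of 0.207 (0.187 to 0.227) and a log2 ratio of -2.11. NR6A1 (ENSG00000148200.17), an orphan nuclear receptor that represses pluripotency genes in the embryo, stood at 3.43 CPM in induced (276 counts) and 6.75 CPM in control cells (644 counts), a ratio of 0.509 (0.440 to 0.586) and a log2 ratio of -0.81. ARID3B (ENSG00000179361.17), a DNA-binding protein of the ARID family, stood at 12.6 and 17.1 CPM in induced and control cells, a ratio of 0.736 (0.680 to 0.797) and a log2 ratio of -0.41.

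A difference of 1.5-fold or more towards lower levels after induction was found for 4 of the 9 members (LIN28B, IGDCC3, IGF2BP1 and NR6A1), and towards higher levels for 0. Their median log2 ratio was -0.41. A gene is called measured where 1 of the libraries or both had 10 CPM or more. Of 9017 measured genes, 7.73% were at least 1.5-fold lower and 10.3% at least 1.5-fold higher, with a median log2 ratio of -0.04. As the members were named with these values known, nothing is read from that contrast. Of the 9, 6 were measured, and HMGA2, IGF2BP2 and NR6A1 were not.

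**Figure D1:**
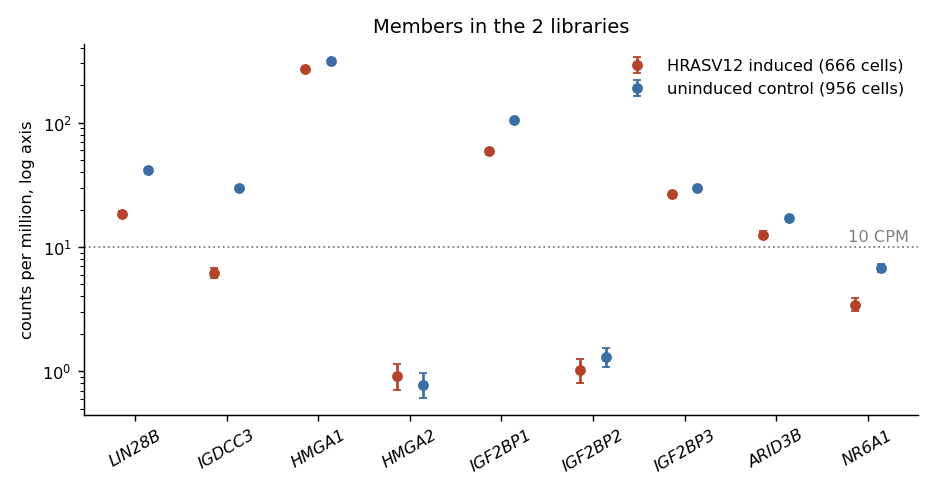
Level of each member in the HRASV12 induced library (red, left) and the uninduced control library (blue, right), in CPM on a log axis, with Poisson intervals for counting error and the 10 CPM floor as a dotted line. LIN28B, IGDCC3, IGF2BP1 and NR6A1 lie lower in the induced library, at 18.6, 6.16, 59.5 and 3.43 CPM against 41.6, 29.8, 106 and 6.75 CPM, while HMGA2 and IGF2BP2 lie near 1 CPM in both.

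In sums over a library, fewer expressing cells and less RNA per cell cannot be told apart, so counts per cell were compared at equal depth, each cell thinned to 53000 counts (562 induced and 766 control cells). At least 1 LIN28B count was found in 54.1% of induced cells (exact binomial interval 49.9 to 58.3) and 82.9% of control cells (80.04 to 85.5), and at least 3 counts in 13.2% and 39.3%. The unthinned shares with at least 1 count were 67.0% of induced and 86.9% of control cells. LIN28B was thus still counted in 304 of the thinned induced cells, and the median was 1 count in induced and 2 in control cells.

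IGDCC3 was counted in 22.8% of induced cells (19.4 to 26.5) and 61.7% of control cells (58.2 to 65.2), and in 32.4% and 68.7% without thinning. Its counts were spread unevenly over control cells: the variance was 2.24 times the mean in induced and 3.05 times the mean in control cells, where pure counting error gives 1, and a single control cell held 18 thinned counts. For LIN28B the same ratio was 1.75 in induced and 1.51 in control cells. The tenth of cells with the most IGDCC3 held 66.8% of its counts among induced and 41.6% among control cells. Such a share is higher for a scarcer gene, and the mean was 0.386 counts in induced and 1.59 in control cells. These shares therefore do not by themselves show a more uneven spread in induced cells.

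IGF2BP1 was counted in most cells of both libraries, 88.6% of induced and 98.4% of control cells (93.5% and 98.6% without thinning), but at least 3 counts were found in 52.8% of induced (48.6 to 57.0) and 86.0% of control cells (83.4 to 88.4). IGF2BP3 was counted in 64.6% and 75.7% of induced and control cells, ARID3B in 44.8% and 57.2%, and NR6A1 in 15.1% and 28.2%. HMGA1 was counted in 99.8% of induced and 99.7% of control cells. HMGA2 was counted in 5.69% and 4.44% and IGF2BP2 in 5.16% and 7.44% of induced and control cells. Among 4 immune genes that neuroblastoma cells should lack, PTPRC, LYZ, CD14 and CD3D, the shares ran from 1.25% to 6.41% of induced and from 0.131% to 5.35% of control cells, with PTPRC the highest and the other 3 at no more than 2.22%. HMGA2 lay inside this range in both libraries, and IGF2BP2 inside it in induced and above it in control cells, so whether the cells express them cannot be told from these shares.

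**Figure D2:**
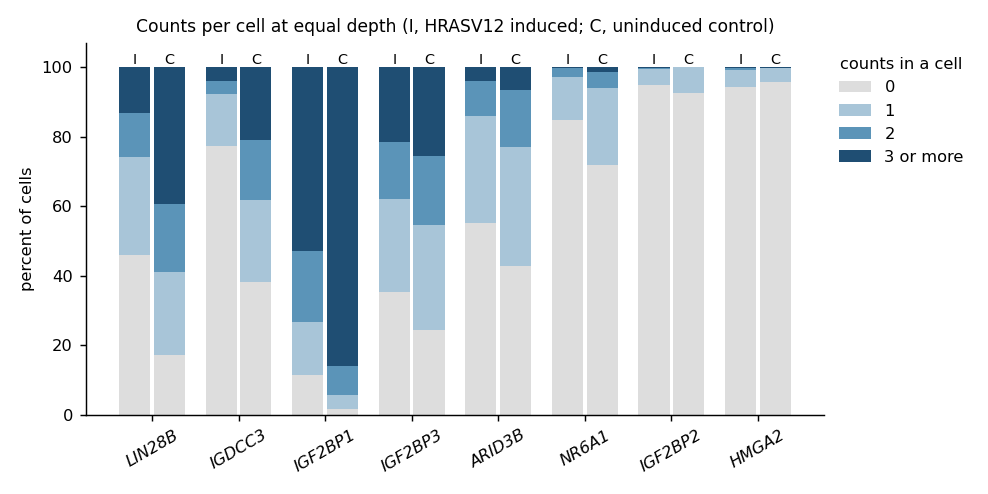
Percent of cells with 0, 1, 2 or at least 3 counts of a member after thinning each cell to 53000 counts, with the HRASV12 induced library (I, 562 cells) left of the uninduced control library (C, 766 cells) for each gene. The part with 0 LIN28B counts is 45.9% of induced and 17.1% of control cells, and for IGDCC3 77.2% and 38.3%, while HMGA2 and IGF2BP2 are at 0 in over 90% of cells of both libraries.

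IGDCC3 was counted more often in induced cells that also had a LIN28B count. Among induced cells with a LIN28B count, 30.9% also had an IGDCC3 count (25.8 to 36.4), against 13.2% of induced cells without LIN28B (9.30 to 17.9). In control cells the shares were 63.8% with LIN28B (59.9 to 67.5) and 51.9% without it (43.0 to 60.7). Both genes were also counted in fewer induced cells called G1 (LIN28B 42.5%, IGDCC3 16.5%) than called S (74.1% and 48.3%). The part of cell cycle phase and of other differences between cells in this shared detection was not tested. Across single cells, as a description over cells that share a library, the correlation of LIN28B with IGF2BP1 was 0.40 in induced and 0.21 in control cells, the highest of the 36 pairs of members in each library. The pairs ran down to -0.11 in induced and -0.06 in control cells. Likeness of members to other genes was taken as the Pearson correlation of thinned log counts over 766 control cells, among 5150 genes. The genes most like LIN28B over control cells were LBR, a receptor of the nuclear envelope, DICER1, the enzyme that cuts let-7 precursors, IGF2, a fetal growth factor, ANP32E, and CENPF, a mitotic protein. Their correlations with LIN28B were 0.46, 0.28, 0.45, 0.42 and 0.42 over 562 induced cells and 0.32, 0.30, 0.30, 0.29 and 0.28 over control cells. HMGA1 was most like H2AFZ (0.58 in induced and 0.50 in control cells), PTMA, FABP5, DUT and PCLAF. IGF2BP1 was most like SET, HNRNPU, ANP32B, LBR and NCL, at 0.35 to 0.43 in control cells. IGF2BP3 was most like MALAT1 (0.36), DDX5, NCL, HSP90AB1 and CCT5. For IGDCC3 the nearest genes, EIF4G2, HNRNPAB, KPNB1, PRRT4 and BAMBI, reached only 0.19 to 0.21.

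The libraries differed in cell cycle genes. Phase scores placed 62.5% of induced and 19.97% of control cells in G1, 10.3% and 27.7% in S, and 27.2% and 52.3% in G2 or M. Past 1.5-fold lower in induced cells were 32 of 38 measured S phase genes and 43 of 52 G2 and M phase genes. Members were therefore compared within a phase as well. A phase call is a score, and RNA from outside the cell can add to it.

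Within every phase LIN28B was lower in induced cells, and the gap was widest in G1. In G1, S and G2 or M, LIN28B stood at 12.3, 29.6 and 32.6 CPM among induced cells, against 32.3, 39.9 and 47.5 CPM among control cells. In the same order the ratios were 0.379 (0.316 to 0.455), 0.742 (0.586 to 0.932) and 0.685 (0.596 to 0.785). Induced cells in S or in G2 or M were thus near the level of control cells in G1.

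IGDCC3 stood at 4.89, 15.3 and 9.74 CPM in G1, S and G2 or M of induced cells, against 23.7, 30.3 and 32.3 CPM in control cells, with ratios of 0.207 (0.159 to 0.266), 0.504 (0.363 to 0.685) and 0.302 (0.236 to 0.381). IGF2BP1 had ratios of 0.586 (0.529 to 0.649), 0.865 (0.760 to 0.981) and 0.806 (0.742 to 0.875). HMGA1, which within control cells was lower in G1 (226 CPM) than in S (323 CPM), had ratios of 0.992 (0.939 to 1.05), 1.07 (1.00 to 1.15) and 1.06 (1.01 to 1.10). ARID3B was at 0.610 (0.489 to 0.764) in G1 and 1.23 (0.908 to 1.65) in S. NR6A1 was at 0.659, 0.432 and 0.513 in the 3 phases, from 65, 11 and 27 induced counts. In G1 cells alone 4 members were past 1.5-fold lower, with ARID3B in place of NR6A1, whose log2 ratio with 1 CPM added was -0.49 there.

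**Figure D3:**
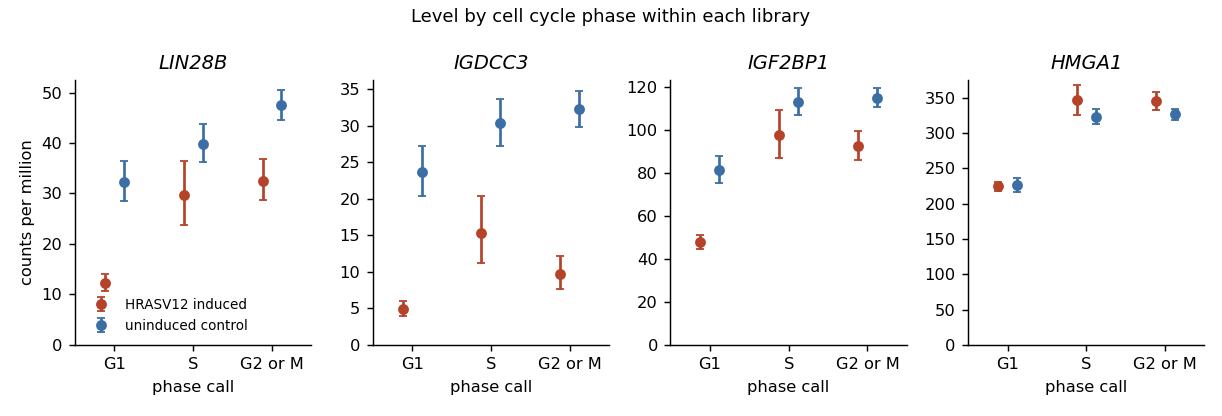
Level of LIN28B, IGDCC3, IGF2BP1 and HMGA1 (CPM of thinned counts, Poisson intervals) by phase call in the HRASV12 induced library (red, left) and the uninduced control library (blue, right). LIN28B is at 12.3 against 32.3 CPM in G1 and 32.6 against 47.5 CPM in G2 or M, whereas the HMGA1 values of the libraries lie close together in each phase.

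Cells of the induced library were not alike in HRAS and in vimentin (VIM), a mesenchymal intermediate filament gene. Among induced cells LIN28B stood at 29.8 CPM in 71 cells with 0 to 3 HRAS counts (24.5 to 35.8), 20.5 CPM in 309 cells with 4 to 9 (18.3 to 22.8) and 14.1 CPM in 182 cells with 10 or more (11.8 to 16.7). In control cells the same classes held 42.9, 42.4 and 40.7 CPM. IGF2BP1 stood at 84.8, 66.4 and 55.4 CPM in these classes of induced cells, against 104, 110.3 and 102 CPM in control cells, and IGDCC3 at 9.04, 7.63 and 6.01 CPM against 26.9, 31.8 and 26.5 CPM. MKI67, a gene of dividing cells, moved with the classes, with 119, 93.8 and 78.9 CPM among induced and 174, 191 and 216 CPM among control cells, and its part in the order of LIN28B was not tested.

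By VIM count, the cells of each library were cut into 3 classes of nearly equal size. LIN28B stood at 34.0 CPM in the 187 induced cells lowest in VIM (30.5 to 37.8), at 13.8 CPM in the next class and at 10.9 CPM in the 188 highest, against 45.4, 47.6 and 34.2 CPM in control cells. IGDCC3 stood at 12.9, 5.65 and 3.31 CPM in induced cells, against 32.8, 32.9 and 24.4 CPM in control cells. IGF2BP1 stood at 87.5, 53.9 and 54.1 CPM against 124, 108 and 91.5 CPM. NR6A1 went the other way among induced cells, at 2.83, 2.42 and 5.12 CPM, against 8.07, 6.96 and 5.23 CPM in control cells. IGF2BP3 had no such order, at 28.5, 20.5 and 36.1 CPM in induced and 35.0, 30.7 and 29.04 CPM in control cells. MKI67 stood at 146, 73.25 and 56.8 CPM in these induced cells and 219, 187 and 163 CPM in control cells, and its part in the result was not tested. These intervals cover counts pooled over cells and leave out the spread between cells.

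A part of the induced cells grouped with control cells, and there IGDCC3 had the lowest ratio of the members while LIN28B and IGF2BP1 were near level. Of 9 clusters of cells, 4 held at least 20 cells of each library, together 169 induced and 865 control cells, and this grouping was chosen after the values were seen. In these shared clusters VIM stood at 196 CPM in induced and 108 CPM in control cells, and HRAS at 109 and 110.1 CPM. LIN28B stood at 41.8 CPM in induced and 42.4 CPM in control cells of the shared clusters, a ratio of 0.987 (0.908 to 1.07), and IGF2BP1 at 104 and 108 CPM, a ratio of 0.962 (0.913 to 1.01). IGDCC3 stood at 15.8 CPM in induced and 30.8 CPM in control cells of the same clusters, a ratio of 0.513 (0.449 to 0.583).

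The IGDCC3 difference was present in each of the 4 clusters. Its level was 16.9, 16.1, 18.4 and 13.05 CPM in the induced cells of clusters 1, 3, 4 and 5 and 26.6, 32.2, 34.6 and 29.7 CPM in their control cells, with ratios from 0.439 to 0.635 and the highest upper bound at 0.797. LIN28B had ratios from 0.972 to 1.05 in the same 4 clusters, each with an interval that includes 1. NR6A1 had a ratio of 0.646 over the shared clusters (0.496 to 0.831, 69 induced counts), and ARID3B was higher in induced cells there, at 21.4 against 16.9 CPM, a ratio of 1.26 (1.12 to 1.42). Over these cells 1.55% of the 9017 measured genes were at least 1.5-fold lower in induced cells and 2.96% at least 1.5-fold higher, and of the members IGDCC3 alone was called past 1.5-fold, with a log2 ratio of -0.92. NR6A1, whose plain ratio of 0.646 is itself beyond 1.5-fold, had a log2 ratio of -0.53 with 1 CPM added and was not called. Clusters were made from variable genes that included LIN28B, IGDCC3 and VIM, so likeness of the libraries in a shared cluster is partly built in.

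In the remaining 497 induced and 91 control cells LIN28B stood at 12.8 and 33.1 CPM, IGDCC3 at 3.75 and 19.5 CPM and IGF2BP1 at 48.3 and 83.0 CPM. MKI67 stood at 173 CPM in induced and 191 CPM in control cells of the shared clusters, and at 63.3 and 104 CPM in the remaining cells. The lowest LIN28B levels of clusters with over 20 cells were 8.87 CPM in the cluster of 60 induced and 12 control cells that was highest in endothelial markers (summed 669 CPM), and 10.9 CPM in a cluster of 320 induced and 6 control cells.

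**Figure D4:**
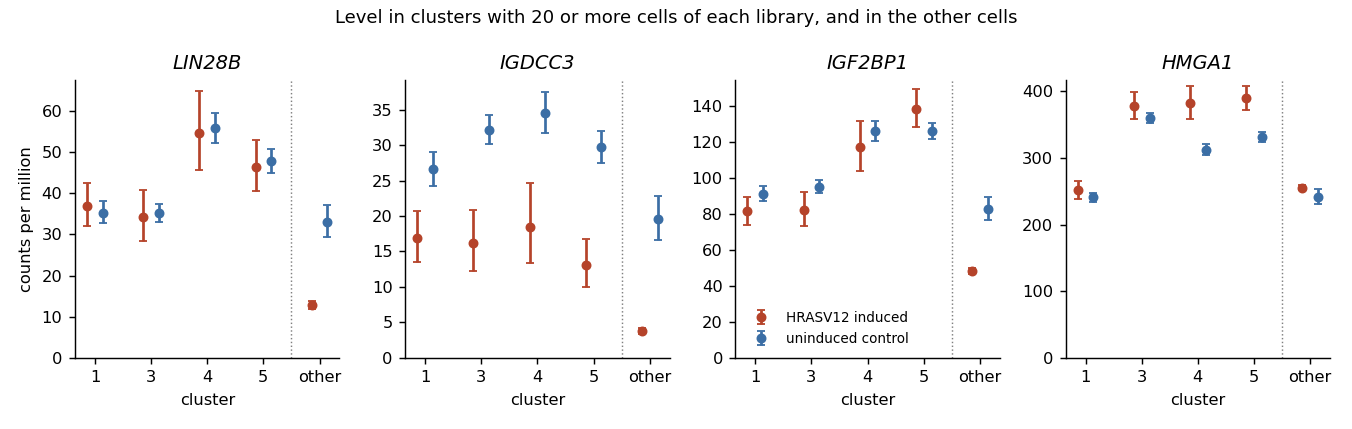
Level of LIN28B, IGDCC3, IGF2BP1 and HMGA1 (CPM, Poisson intervals) in the 4 clusters with at least 20 cells of each library, and in all other cells, for the HRASV12 induced library (red, left) and the uninduced control library (blue, right). In clusters 1, 3, 4 and 5 the LIN28B values of both libraries overlap, while IGDCC3 is lower in induced cells in each, for example 13.05 against 29.7 CPM in cluster 5.

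Cells low in mitochondrial percent or MALAT1 differed in the members too. With a limit at the 5th percentile of control cells for both measures, 406 induced cells passed, with LIN28B at 25.2 CPM, and the other 260 induced cells had 10.9 CPM. IGF2BP1 stood at 73.9 and 42.7 CPM and IGDCC3 at 7.98 and 4.04 CPM in these 2 sets of induced cells. Against the 871 control cells that passed, with LIN28B at 42.4, IGF2BP1 at 108 and IGDCC3 at 30.5 CPM, the log2 ratios were -0.72 for LIN28B, -1.81 for IGDCC3, -0.54 for IGF2BP1 and -0.53 for NR6A1. LIN28B and IGDCC3 were thus called past 1.5-fold under this limit. IGF2BP1 and NR6A1 were not, NR6A1 (4.55 CPM in induced and 7.01 CPM in control cells) only because 1 CPM was added. The 260 cells below the limit were not short of counts, with a median of 135293 per cell.

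The genes that make, block or use let-7 were mostly a little lower in induced cells. Of 21 measured genes of let-7 processing and silencing, 3 were at least 1.5-fold lower and 0 at least 1.5-fold higher. Of the 21, 20 lay below 0 and the median log2 ratio was -0.42, or -0.40 without LIN28B. Over all measured genes 7.73% were lower and 10.3% higher by 1.5-fold, 53.6% lay below 0 and the median was -0.04. Besides LIN28B the lowest of the list were KHSRP, a protein that promotes let-7 processing, and DGCR8, the partner of DROSHA. KHSRP stood at 75.6 CPM in induced and 123 CPM in control cells (log2 ratio -0.70), and DGCR8 at 15.02 and 24.5 CPM (-0.67). DICER1 stood at 41.5 and 60.7 CPM. TNRC6B and TARBP2 were near level, and YBX1, a general RNA-binding protein, was the highest at 1711 and 1570 CPM (0.12). With cells limited by mitochondrial percent and MALAT1 the median was -0.21 and 1 of 21 was lower, and in the shared clusters the median was 0.06 with 0 lower. The call of KHSRP and DGCR8 also depended on scaling: 1 of 21 genes was past 1.5-fold lower with DESeq2 size factors, and 6 of 22 when library totals omitted the genes of ribosomal proteins and mitochondria.

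Of the transcripts that host let-7 genes, 4 were measured and 0 were called past 1.5-fold, although MIRLET7BHG lay at that size before 1 CPM was added (log2 ratio with it -0.55). Over all measured genes 7.73% were lower and 10.3% higher, so little can be read from a count of 0 among 4. All 4 lay below 0, with a median log2 ratio of -0.29, against -0.04 over all measured genes. MIR100HG, below 10 CPM in both libraries, had a ratio of 1.44. MIRLET7BHG, which hosts let-7a-3 and let-7b, stood at 10.2 CPM in induced and 15.3 CPM in control cells (ratio 0.665, 0.610 to 0.725). WDR82, HUWE1 and MIR99AHG had ratios of 0.782, 0.848 and 0.874. A host transcript is not a measure of the mature microRNA.

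A wider list of 46 genes named as let-7 targets held 34 measured genes. Of these, 12 were at least 1.5-fold lower and 3 at least 1.5-fold higher, with a median log2 ratio of -0.30. Over all measured genes 7.73% were lower and 10.3% higher by 1.5-fold, with a median of -0.04. Without the members the list had 9 lower and 3 higher of 28, with a median of -0.27. CDK6, a kinase of G1 progression, stood at 111 CPM in induced and 248 CPM in control cells (log2 ratio -1.15) and was the lowest after IGDCC3. Among those that were higher, IRS2, an insulin receptor substrate, stood at 34.2 CPM in induced and 17.2 CPM in control cells (0.95), and CCND1, cyclin D1, at 808 and 450 CPM (0.84). The list thus split, with 27 of 34 genes below 0. With genes of the phase lists also left out, 7 of 26 were lower and 3 higher by 1.5-fold (median -0.24). HRAS is itself on the list.

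Classes of genes with more 8-base let-7 matches in the 3' UTR had lower median ratios. Of measured genes, 8521 (94.5%) could be matched to a 3' UTR. The median log2 ratio was -0.03 over 8199 genes with no 8-base match, -0.16 over 309 genes with 1, -0.40 over 9 genes with 2 and -0.90 over 4 genes with 3 or more. At least 1.5-fold lower were 7.44%, 9.39%, 33.3% and 4 of 4 genes of these classes. Members, chosen with their values known, make up part of the upper classes, and without them 2 of 8 genes with 2 matches and 2 of 2 with 3 or more were lower. The 4 genes with 3 or more were IGDCC3, IGF2BP1, FIGN (13.4 CPM in induced and 26.9 CPM in control cells) and SMC1A, a cohesin subunit (76.9 and 139 CPM). FIGN, SMC1A, CBX5, FZD3 and DDA1 are named after their values were seen, because these classes hold few genes. Of the 9 genes with 2 matches LIN28B, CBX5 and FZD3 were past 1.5-fold lower, at -1.12, -0.71 and -0.61, and DDA1 was past it higher, at 0.64.

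The length of the 3' UTR rose with the number of matches, with medians of 1111, 3555, 5124 and 6080 bases, and its part in the order was not tested. Among genes with a 3' UTR above the median length, the median log2 ratio was -0.08 with no 8-base match (3988 genes) and -0.18 with 1 (259 genes), and 7.72% and 8.49% of them were past 1.5-fold lower. With 7-base matches counted too, the share of these long-UTR genes that were lower was 7.83% with no match and 6.87% with 1, the opposite order. Over 3' UTRs of all lengths and without the members, the median log2 ratio was -0.16 over 308 genes with 1 8-base match and -0.38 over 8 genes with 2. With 7-base matches counted as well, the medians were -0.03, -0.11, -0.21 and -0.34 for 0, 1, 2 and 3 or more matches, and -0.19 for the last class without the members. The members with the most matches to CTACCTC were not all the lowest: NR6A1 with 5 was at -0.81 and HMGA2 with 4, at 0.10, was too scarce to compare. This order leaves out TACCTCA stretches, of which ARID3B held 4 and HMGA2 3.

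**Figure D5:**
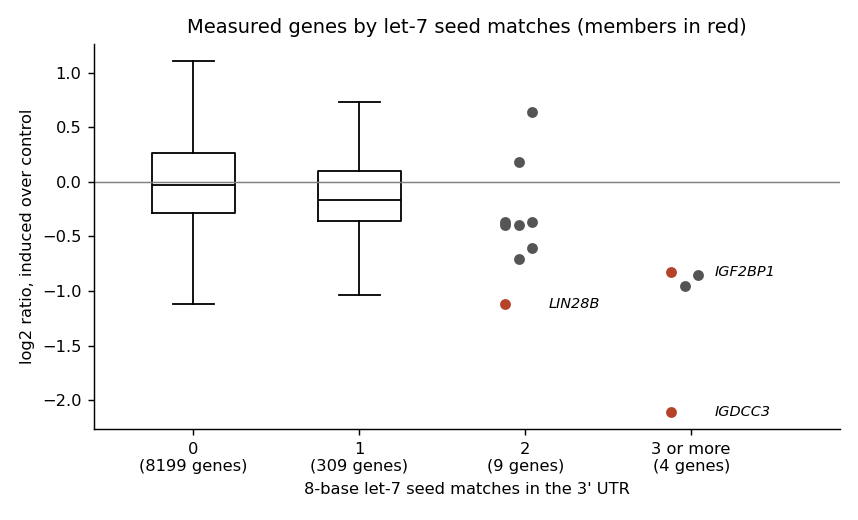
Log2 ratio of induced over control for measured genes by the number of 8-base let-7 seed matches in the 3' UTR. Boxes show the median and quartiles with whiskers to 1.5 times the box height for the classes with 0 and 1 match, and points are single genes, red for members. IGDCC3 at -2.11 and IGF2BP1 at -0.82 are 2 of the 4 genes with 3 or more matches, and LIN28B at -1.12 is the lowest of 9 with 2.

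Of 24 listed oncofetal and pluripotency genes 7 were measured, and 5 were past 1.5-fold lower and 0 higher (median log2 ratio -1.01), beside 7.73% lower and a median of -0.04 over all measured genes. LIN28B, IGF2BP1 and IGF2BP3 are 3 of these 7, and LIN28B and IGF2BP1 are 2 of the 5. Of the other 4, IGF2, DLK1 and PEG10 were lower and PRAME was not past 1.5-fold. IGF2, the growth factor whose messenger RNA the IGF2BP proteins bind, stood at 19.5 CPM in induced and 64.6 CPM in control cells, a ratio of 0.302 (0.286 to 0.320). DLK1, an imprinted surface protein of fetal tissue, stood at 459 and 1370 CPM, and PRAME, a tumour antigen, at 6.93 and 10.1 CPM. SOX2, a pluripotency factor below the floor in both libraries and named after its values were seen, stood at 1.03 CPM in induced and 5.74 CPM in control cells. LIN28A, the paralogue of LIN28B and likewise named afterwards, stood at 0.921 and 1.25 CPM.

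Messenger RNAs known to be bound by the IGF2BP proteins went both ways. Of 10 measured client transcripts 2 were at least 1.5-fold lower (IGF2 and MKI67) and 1 at least 1.5-fold higher, with a median log2 ratio of -0.17. The shares over all measured genes were 7.73% lower and 10.3% higher, with a median of -0.04. The higher client was ACTB, beta-actin, at 6231 CPM in induced and 2842 CPM in control cells (1.13). CTNNB1, beta-catenin, stood at 87.9 CPM in induced and 83.3 CPM in control cells, and HDGF at 215 and 288 CPM. MYC and CD44, just or far below the floor and named after their values were seen, stood at 9.99 and 3.33 CPM after induction, against 0.954 and 0.0315 CPM without it.

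Relatives of the members by sequence family or by name were lower in part. The HMGB and HMGN genes share the high mobility group name with HMGA1 and HMGA2 but are not of their sequence family. Of 13 measured relatives 6 were past 1.5-fold lower and 0 past 1.5-fold higher, with a median log2 ratio of -0.58. Over all measured genes 7.73% were lower and 10.3% higher, with a median of -0.04. The lowest relatives were HMGN2 and HMGB2, chromatin proteins that are also high in dividing cells, and PRTG, protogenin, of the same family as IGDCC3. HMGN2 and HMGB2 stood at 283 and 204 CPM in induced and 591 and 390 CPM in control cells, and PRTG at 5.14 and 10.6 CPM (-0.92). HMGN3, ARID5B and HMGB3 were near level, with log2 ratios of 0.11, -0.10 and -0.20.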

How the data were processed

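Per the labels, 1 library each was made from doxycycline-treated and untreated cells. The authors deposited a table of whole-number counts per gene and cell, made with kallisto and bustools per the submitters' processing notes. No source used here states whether a count is a molecule or a read, or gives tool versions or a genome build. The deposited annotation gives each cell's library and its percent of mitochondrial counts, and marks all 1622 cells as singlets. Its rows were matched to the table by order, which was checked by barcode suffix and totals (largest difference 192 counts). Symbols are the authors', and 376 rows repeat a symbol.

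Counts were summed per library and scaled to CPM. Log2 ratios were taken after adding a pseudocount of 1 CPM, so low genes show too small a difference. A count of 0 allows 3 counts, or 0.0373 CPM for induced and 0.0315 CPM for control cells. Intervals are exact Poisson, conditional or Clopper-Pearson, at 95%. Cells were thinned to 53000 counts, leaving out 104 induced and 190 control cells. Phases and clusters came from scanpy 1.11.5 and igraph 0.11.9 (2000 variable genes, 30 components, 15 neighbours, resolution 0.5). TMM factors were computed with edgeR 4.0.16 and size factors with DESeq2 1.42.0, and no test was run. Seed matches were searched in GENCODE 29 (the principal transcript of each gene, the longest 3' UTR where several qualify), which may not be the authors' annotation. Alternatives changed the scaling, the floor, the pseudocount or the cells used, and restricting to clusters shared by both libraries was added after seeing the data. Calculations were tested on simulated data.

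Members and lists were chosen with earlier results of these data known. Named besides the members, HRAS and VIM are the 3 highest and 3 lowest measured genes of each list and, for members with at least 25 CPM in the control library, the 5 genes most like them over control cells. Some genes that this rule names are not reported here. Genes named outside this rule (such as PTPRC, CD3D, LYZ, CD14, MALAT1, DICER1 as a processing gene and LIN28B-AS1) were chosen after their values were seen.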

Additional observations from a re-analysis of the deposited data

How the results depend on the processing

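LIN28B and IGDCC3 stayed past 1.5-fold lower under all 12 alternatives planned for single members, with log2 ratios from -1.33 to -0.72 and from -2.26 to -1.64. IGF2BP1 ranged from -0.92 to -0.54, NR6A1 from -0.96 to -0.48, ARID3B from -0.66 to -0.17 and HMGA1 from -0.28 to -0.01. HMGA2, IGF2BP2 and IGF2BP3 changed sign, with ranges from -0.04 to 0.39, -0.32 to 0.21 and -0.26 to 0.05. TMM and DESeq2 scaling shifted log2 ratios by 0.112 and 0.161 before 1 CPM was added, and totals without ribosomal protein and mitochondrial genes by -0.0924; low members moved by other amounts. Members past 1.5-fold lower numbered 2 under a floor on mitochondrial percent and on MALAT1, and 1 of 2 at 50 CPM or more, against 4. let-7 targets numbered 4 lower of 13 at 50 CPM or more, against 12, and 5 higher with DESeq2 factors and in G1 cells, against 3. Processing genes lower numbered 1 with DESeq2 factors, under the same floor and at 50 CPM or more, and 6 with the totals named, against 3. In the shared clusters, chosen after seeing the data, 1 member, 1 target and 0 processing genes were lower and 1 target and 1 processing gene higher, and the medians of members and of processing genes were 0.0638 and 0.0583, against -0.41 and -0.42. The cause of these changes was not tested. Fewer genes were tested at 50 CPM or more. No paired analysis was possible because each group has 1 library. With 73 to 124 counts per library, HMGA2 and IGF2BP2 limit what depth can show.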
